A study of Mus musculus with 75 samples.

Results

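The 12 BLEO-IPF mice of day 28 were grouped by their own *Col1a1* level, that is, by a measured value, into the 6 highest (high-*Col1a1* mice) and the 6 lowest (low-*Col1a1* mice), out of 75 mice sequenced in all. *Col1a1* encodes the alpha 1 chain of type I collagen and was ranked by its counts scaled to the total of each library (CPM). All mice were males of the C57BL/6JRj strain, 12 to 14 weeks of age per the labels. They had been given bleomycin (BLEO), a cancer drug that damages alveolar epithelial cells, as a single intratracheal instillation, and the tissue was 1 lobe, the inferior lobe of the right lung. Only animals with mild to moderate loss of body weight had been admitted to the study, so the range of severity was narrowed beforehand. The 10 CTRL mice were given saline per the labels and the figure captions of the study, whereas its methods describe them as untreated. The remaining BLEO-IPF mice were taken on day 7 (10 mice), on days 14, 21 and 35 (12 mice each) and on day 42 (7 mice).

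Fibrosis is the build-up of a collagen-rich matrix by activated fibroblasts and myofibroblasts. Transforming growth factor beta (TGF-beta) drives much of this process. It is stored in the matrix in a latent form and released by integrins, and its receptors signal through SMAD proteins. After BLEO the matrix response in mice is known to peak and then to resolve in part, so animals taken on the same day can stand at different points. The grouping asks which other transcripts went with the collagen level at a single day. As the grouping used the readout, differences between high- and low-*Col1a1* mice are given as a description of severity, with no test.

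*Col1a1* spanned 397 to 3387 CPM on day 28. Among the high-*Col1a1* mice the level was 3387 in replicate 5, 2561 in replicate 1, 2495 in replicate 4, 1241 in replicate 2, 1138 in replicate 6 and 1074 in replicate 9. The low-*Col1a1* mice had 712 CPM in replicate 3, 593 in replicate 7, 570 in replicate 8, 563 in replicate 12, 516 in replicate 11 and 397 in replicate 10. The cut thus fell between replicate 9 at 1074 CPM and replicate 3 at 712 CPM. On the log2 scale of TMM-scaled CPM, which corrects for library composition, the widest gap was a different one, 0.93 between the top 3 mice and the other 9. CTRL mice had 235 to 440 CPM (median 324, n = 10). All 6 high-*Col1a1* mice and 5 of the 6 low-*Col1a1* mice lay above every CTRL mouse, and replicate 10 lay within the CTRL range. The high-*Col1a1* mice were all inside the range of day 14 (1026 to 4269 CPM, n = 12), and none of the low-*Col1a1* mice was.

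**Figure D1:**
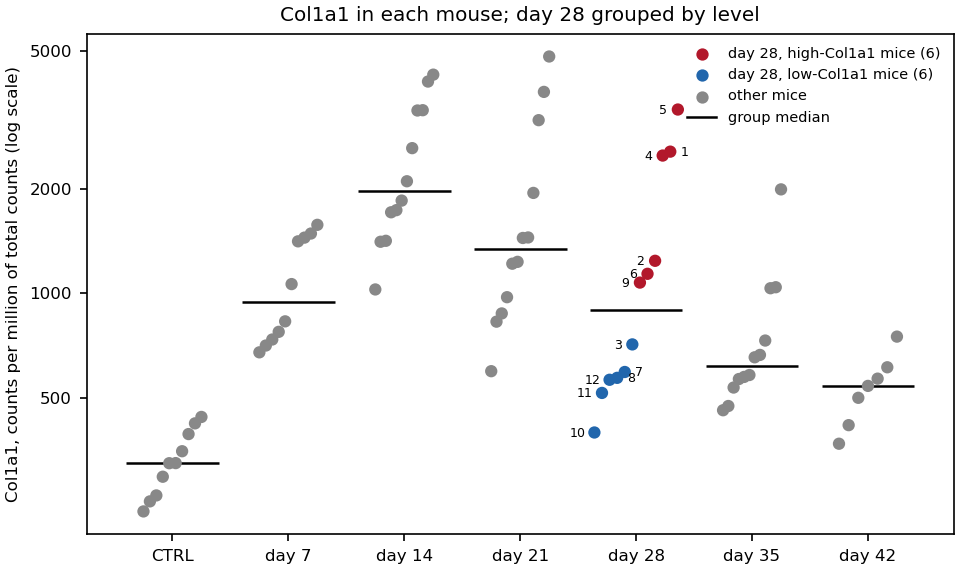
*Col1a1* in CPM of total counts (log axis) for each of the 75 mice by group. Red and blue points are the high- and low-*Col1a1* mice of day 28 with their replicate numbers, gray points are other mice and bars are group medians. The day 28 mice run from 397 to 3387 CPM, and their lowest member lies within the CTRL range of 235 to 440 CPM.

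The 12 libraries of day 28 held 9249037 to 13704519 counts, and each of the 66 pairs of libraries differed by more than sampling noise (lowest chi-square per degree of freedom 6.78). Replicate 10, the mouse with the lowest *Col1a1*, stood apart. The summed level of 24 skeletal muscle genes was 3880 CPM in it and 42.2 to 205 CPM in the other 11 mice. Its cardiac muscle genes summed to 2942 CPM and its brown adipose genes to 1300 CPM, against 16.3 to 42.9 CPM of brown adipose genes in CTRL. Mitochondrially encoded genes took 2.87% of its counts and 1.15% to 1.85% of those of the other mice. Cardiac genes were also above the CTRL range (110 to 366 CPM) in replicates 4, 7, 8 and 11, at 582, 421, 831 and 1038 CPM, and 3 of these 4 were low-*Col1a1* mice. The levels of all genes other than *Col1a1*, and their sums, are in CPM scaled by TMM factors, which correct for differences in library composition. Values are therefore given with and without replicate 10 for some of the lists and genes that it moved. The part of RNA from other tissues in the results was not tested. The lung carried its own markers in every mouse of day 28, with *Sftpc* (surfactant protein C) at 6045 CPM or more and *Ager*, a marker of alveolar type 1 (AT1) cells, at 1119 CPM or more. In bulk tissue, fewer cells of a type and less RNA per cell cannot be told apart.

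**Figure D2:**
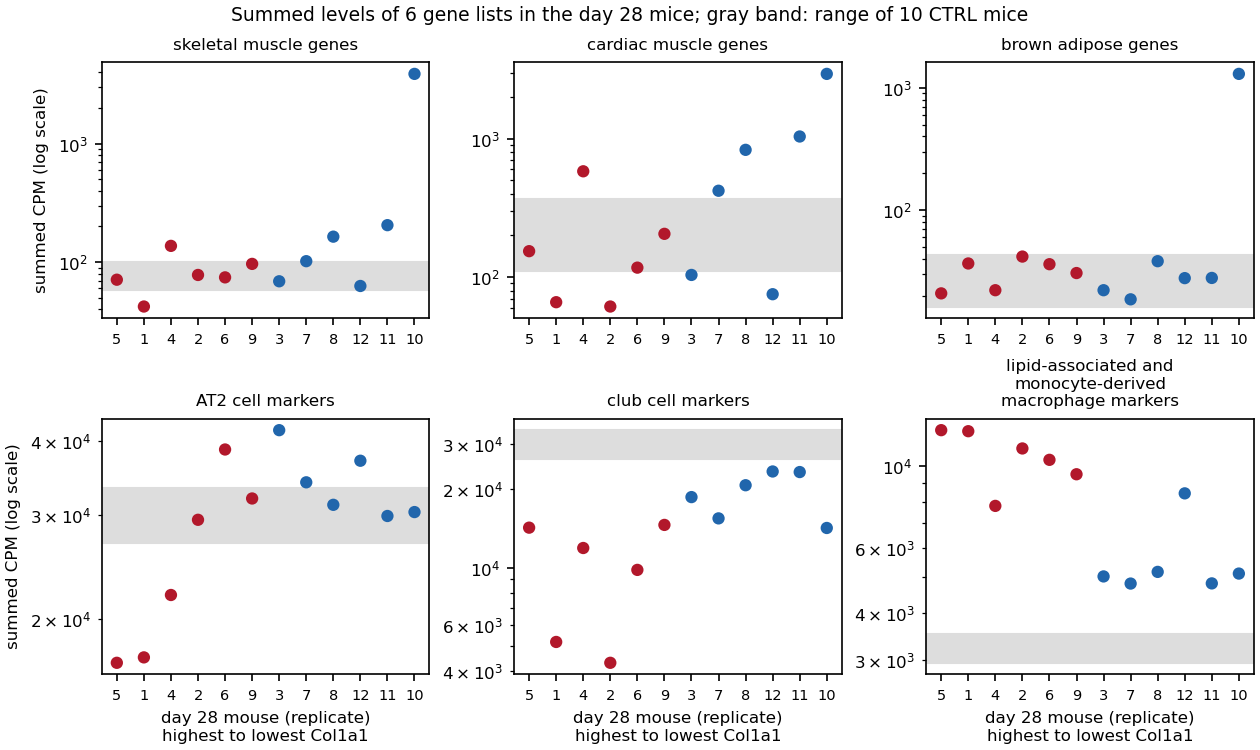
Summed CPM (log axes) of 6 gene lists in each day 28 mouse, ordered from the highest to the lowest *Col1a1*, with high-*Col1a1* mice in red, low-*Col1a1* mice in blue and the range of 10 CTRL mice in gray. Replicate 10 stands alone for skeletal muscle genes at 3880 CPM and brown adipose genes at 1300 CPM, and AT2 markers are lowest in the 3 mice with the most *Col1a1*.

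Across the 16220 genes tested other than *Col1a1*, 611 genes (3.77%) were higher in all 6 high-*Col1a1* mice than in all 6 low-*Col1a1* mice, and 391 (2.41%) were lower in all 6. At least 2-fold differences of the mean were seen for 447 genes upward (2.76%) and 441 downward (2.72%). These differences are between mean log2 CPM with a prior count of 2, which shrinks them for weakly expressed genes. Without replicate 10, 707 genes were higher (4.36%) and 468 lower (2.89%) in all high-*Col1a1* mice, and these include by construction all of the 611 and the 391. Of the 2-fold lists, 322 of the 441 genes with a downward difference and 397 of the 447 with an upward one remained without it. The median difference of all genes was -0.01 on the log2 scale. Ranking by *Col1a2*, the partner chain of type I collagen, gave the same 6 high mice.

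Placed against CTRL by their labels alone, the 12 day 28 mice had 3906 genes upregulated (24.1% of the 16221 tested) and 3117 downregulated (19.2%), by edgeR's quasi-likelihood test at a Benjamini-Hochberg adjusted p of 0.05 in a fit of all 75 mice. Of the 611 genes that were higher in the high-*Col1a1* mice, 566 (92.6%) were upregulated on day 28, which is 14.5% of the upregulated genes, and 0 were downregulated. Of the 391 genes that were lower, 323 (82.6%) were downregulated, which is 10.4% of the downregulated genes, and 0 were upregulated. Both comparisons contain the same 12 mice. In the low-*Col1a1* mice the median of 249 of the 611 genes lay within the CTRL range and that of 360 above it, and in the high-*Col1a1* mice the median of 590 lay above it. For the 391 genes, the low-*Col1a1* median lay within the CTRL range for 182 and below it for 208, and the high-*Col1a1* median lay below it for 376. By these medians the low-*Col1a1* mice stood between CTRL and the high-*Col1a1* mice, at a median of 0.35 above CTRL for the 611 genes (1.17 in the high-*Col1a1* mice) and -0.235 for the 391 (-0.89) on the log2 scale. The order of the high- and low-*Col1a1* mice in these genes was fixed by their selection, and only the place relative to CTRL was not.

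The largest upward difference among the genes named by rule was that of *Col11a1*, a fibrillar collagen chain that nucleates collagen fibrils. Its level was 47.9, 17.3, 42.7, 1.74, 5.13 and 11.0 CPM in the high-*Col1a1* mice, in order of falling *Col1a1*, and 0.37 to 0.64 CPM in the low-*Col1a1* mice, where it rested on 4 to 6 counts. The difference of 4.29 on the log2 scale was carried by every high-*Col1a1* mouse, but replicate 2 stood close to the low group. *Chl1*, a neural cell adhesion molecule, had 14.6 to 101 CPM against 1.12 to 5.58 CPM, a difference of 3.73. *Cemip*, which takes part in hyaluronan breakdown, ranged from 11.2 to 92.7 CPM against 1.73 to 6.75 CPM, a difference of 3.39, and CTRL mice had at most 0.95 CPM. For *Chl1* and *Cemip* all 12 mice of day 28 lay above all CTRL mice.

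*Fst*, *Fbn2* and *Gcnt4* behaved otherwise in the low-*Col1a1* mice. *Fst* encodes follistatin, an extracellular inhibitor of activins. Its level was 17.8 to 114 CPM in the high-*Col1a1* mice (median 38.1) and 3.53 to 9.61 CPM in the low-*Col1a1* mice (median 5.66), which was the level of CTRL (3.52 to 11.7 CPM, median 5.34). All 6 low-*Col1a1* mice were inside the CTRL range for *Fst*, and so were all 6 for *Fbn2*, a microfibril protein, and 4 of 6 for *Gcnt4*, a glycosyltransferase. None of the high-*Col1a1* mice was within that range for any of these 3 genes. *Megf11*, a transmembrane protein with EGF-like repeats, and *Frzb*, a secreted inhibitor of Wnt signaling, differed by 2.86 and 2.85, and here 0 and 1 of the low-*Col1a1* mice were within the CTRL range. The label-based comparison with CTRL called all 8 genes upregulated, from a log2FC of 2.32 ± 0.55 (SE) for *Fst* to 6.29 ± 1.15 for *Col11a1* (edgeR adjusted p between 8.24e-09 and 0.000696).

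**Figure D3:**
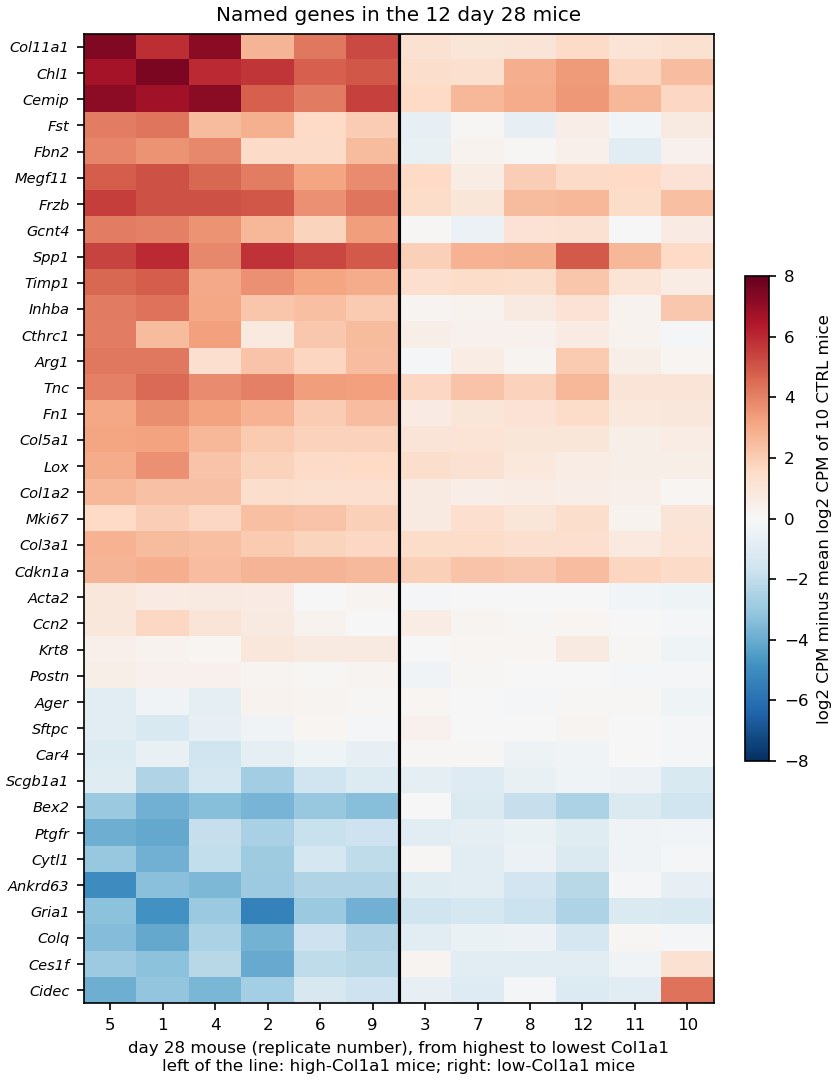
Genes named for their difference or fixed by name (rows; the leading members of the lists are not drawn) in each of the 12 day 28 mice (columns, replicate numbers, from the highest to the lowest *Col1a1*), as log2 CPM minus the mean of 10 CTRL mice, with the line separating high- from low-*Col1a1* mice. Colors shade from blue (below CTRL) to red (above). *Fst* and *Fbn2* are near the CTRL level in the low-*Col1a1* mice, and *Cidec* in replicate 10 is the 1 strongly red cell among the lower genes drawn.

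The counts of list members below stand beside shares over all genes tested. Those shares were 3.77% higher and 2.41% lower in all high-*Col1a1* mice, and 24.1% upregulated and 19.2% downregulated on day 28. Collagen chains other than *Col1a1* went with it in part. Of 43 chains 38 were tested, 14 were higher and 2 lower in all high-*Col1a1* mice, and the median difference was 0.535 (0.425 without replicate 10). Their summed level was 11720 to 20330 CPM in the high-*Col1a1* mice, 7009 to 9256 CPM in the low-*Col1a1* mice and 4432 to 6777 CPM in CTRL. On day 28 as a whole, 26 of the 38 chains were upregulated and 4 downregulated against CTRL. *Col1a2* was 4154, 3306, 3279, 1742, 1563 and 1641 CPM in the high-*Col1a1* mice and 746 to 1090 CPM in the low-*Col1a1* mice, which repeats the 3 mice at the top. The fibrillar chains *Col5a1* and *Col5a2*, which set fibril diameter together with type I collagen, differed by 1.61 and 1.60, more than *Col3a1* at 0.95 (1948 to 4336 CPM against 1076 to 1769 CPM). The basement membrane chains *Col4a1* and *Col4a2* differed by 0.85 and 0.75 without overlap. *Col7a1*, the anchoring fibril collagen, differed by 1.85. *Col10a1*, which had 0 counts in every CTRL mouse, reached 0.55 to 4.99 CPM against at most 0.54 CPM.

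The chains that ran the other way were *Col17a1* and *Col4a6*, a chain of basement membranes. *Col17a1*, a transmembrane collagen of hemidesmosomes, was 0.20 to 3.38 CPM in the high-*Col1a1* mice and 3.75 to 6.83 CPM in the low-*Col1a1* mice (CTRL 6.81 to 9.79 CPM), a difference of -1.98. *Col4a6* differed by -0.79. The type VI chains *Col6a1* and *Col6a2*, which form beaded microfilaments, overlapped between the groups, with differences of 0.42 each, although both were upregulated on day 28 (for *Col6a1*, log2FC 0.49 ± 0.10, edgeR adjusted p = 3.98e-05).

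Among 30 genes of collagen folding and crosslinking, all tested, 9 were higher and 1 lower in all high-*Col1a1* mice (median difference 0.36), and 19 were upregulated and 3 downregulated against CTRL. *Lox*, the lysyl oxidase that starts the crosslinking of collagen and elastin, was 179 to 803 CPM against 84.6 to 168 CPM, a difference of 1.46. *Loxl2*, a relative of *Lox*, was 69.6 to 135 CPM against 26.1 to 61.6 CPM. *P4ha3*, a subunit of a prolyl 4-hydroxylase, had the largest difference of the list at 2.02, with 11.8 to 47.8 CPM against 2.99 to 13.5 CPM and thus an overlap. By contrast, the prolyl 4-hydroxylase subunits *P4ha1* and *P4ha2* differed by -0.13 and 0.11. *Serpinh1*, the collagen chaperone HSP47, differed by 0.49 with overlapping groups. *Pcolce2*, a cofactor of procollagen cleavage, was the lower gene, with 58.4 to 140 CPM against 181 to 291 CPM and 325 to 416 CPM in CTRL.

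Glycoproteins and proteoglycans of the matrix had a median difference of 0.74 over 43 genes, with 13 higher and 1 lower in all high-*Col1a1* mice and 29 upregulated and 3 downregulated on day 28. *Fn1* (fibronectin) was 4499, 6895, 4887, 3531, 2187 and 2919 CPM in the high-*Col1a1* mice and 841 to 1454 CPM in the low-*Col1a1* mice, with CTRL at 405 to 654 CPM. *Tnc* (tenascin C) was 248 to 613 CPM against 52.8 to 165 CPM, and *Thbs2* (thrombospondin 2) 16.2 to 126 CPM against 4.76 to 14.6 CPM. Both groups of mice were above all CTRL mice for *Fn1* and *Tnc*. *Cthrc1*, a marker of collagen-producing fibroblasts in injured lung, was 75.4, 25.6, 44.3, 7.54, 19.5 and 25.6 CPM in the high-*Col1a1* mice, whereas the low-*Col1a1* mice had 3.91 to 6.97 CPM and 4 of 6 were within the CTRL range. *Has2*, a hyaluronan synthase, differed by 2.47. *Eln* (elastin) overlapped, with 1743 to 5220 CPM against 329 to 1758 CPM, and lay above CTRL (126 to 206 CPM) in all 12 mice. *Postn* (periostin), another fibroblast product, differed by 0.35 with overlap and was not called on day 28 (log2FC 0.12 ± 0.08, edgeR adjusted p = 0.183). *Tnxb*, a tenascin of loose connective tissue, was the lower gene, with 35.6 to 95.4 CPM against 144 to 219 CPM.

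Of 28 matrix proteases and inhibitors, 9 were higher and 1 lower in all high-*Col1a1* mice (median difference 0.67), with 19 upregulated and 2 downregulated on day 28. *Timp1*, the tissue inhibitor of metalloproteinases, was 128, 150, 43.6, 68.2, 48.2 and 41.03 CPM in the high-*Col1a1* mice against 7.81 to 24.2 CPM, and all 12 mice lay above CTRL (3.78 to 6.51 CPM). Its relatives *Timp2* and *Timp3* differed by 0.17 and 0.09. *Adamts4*, an aggrecan-cleaving protease, differed by 2.64, but genes overlapping it on the other strand held 989% of its counts and the counting is not stated to use strand. *Mmp14*, a membrane-bound collagenase, was 204 to 551 CPM against 81.3 to 135 CPM. *Mmp28* was the lower gene, at -0.75.

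Of 32 genes of the TGF-beta pathway, 8 were higher and 1 lower in all high-*Col1a1* mice (median difference 0.28), and 17 were upregulated and 7 downregulated on day 28. The shares over all genes tested were 3.77%, 2.41%, 24.1% and 19.2% in the same order. Among the ligands, *Tgfb1* differed by 0.27, *Tgfb2* by 0.32 and *Tgfb3* by 0.61, each with overlapping groups. *Inhba*, which encodes the activin A subunit, was 51.9, 58.9, 24.8, 13.5, 15.3 and 12.5 CPM in the high-*Col1a1* mice and 3.27 to 6.43 CPM in 5 low-*Col1a1* mice, and only replicate 10 at 12.7 CPM made the groups overlap. Its difference was 2.25, and 2.51 without replicate 10. The receptors *Tgfbr1* (difference 0.51) and *Tgfbr2* (0.44) did not overlap, and neither did the integrin subunits *Itgav* (0.48) and *Itgb5* (0.64), which serve in the release of latent TGF-beta. *Itgb6*, the epithelial partner of *Itgav*, differed by 0.60 with overlap. The signal carriers *Smad2* and *Smad3* had differences of 0.01 and 0.06.

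Among the extracellular inhibitors, *Grem1*, an antagonist of bone morphogenetic proteins, differed by 3.79, with 116, 140, 92.4, 10.5, 19.3 and 49.99 CPM against 1.44 to 11.4 CPM. Only replicate 2 (10.5 CPM) fell below a low-*Col1a1* mouse, replicate 12. The membrane and intracellular inhibitors were lower in mean, *Bambi* by -0.85, *Smad6* by -0.65 and *Smad7* by -0.22, all with overlap, and each of the 3 was downregulated on day 28 (edgeR adjusted p = 0.000312, 0.0013 and 0.000394). The TGF-beta target *Pmepa1* was 146 to 393 CPM against 78.9 to 138 CPM, a difference of 1.05. *Ccn2*, the connective tissue growth factor and a further target, differed by 0.59 with overlap.

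Contractile genes of smooth muscle and myofibroblasts had a median difference of 0.08 over 16 genes, 2 were higher and 0 lower in all high-*Col1a1* mice, and 3 were upregulated and 5 downregulated on day 28. Over all genes tested, 3.77% were higher, 2.41% lower, 24.1% upregulated and 19.2% downregulated. *Acta2* (smooth muscle actin) had the largest difference of the list, 0.64, with 410, 354, 364, 353, 229 and 254 CPM against 172 to 226 CPM. Replicate 6 lay within the CTRL range of *Acta2* (191 to 250 CPM), as did 5 of the 6 low-*Col1a1* mice, and day 28 as a whole was not called (log2FC 0.26 ± 0.16, edgeR adjusted p = 0.178). *Cald1* was the other gene without overlap, at 0.54, and *Myh11*, smooth muscle myosin, differed by -0.37.

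Of 20 markers of alveolar and adventitial fibroblasts, 1 was higher and 5 lower in all high-*Col1a1* mice (median difference -0.26), and 3 were upregulated and 9 downregulated on day 28. *Inmt*, a methyltransferase of alveolar fibroblasts, was 203 to 546 CPM against 662 to 1633 CPM, with CTRL at 1550 to 2422 CPM. *Tcf21*, a transcription factor of lipofibroblasts, was 34.1 to 63.7 CPM against 65.6 to 123 CPM. *Npnt*, *Ces1d* and *Clec3b* completed the 5, at -0.60, -0.79 and -0.86. *Slc7a10*, an amino acid transporter, had the largest difference at -2.68 with overlap (0.50 to 8.94 CPM against 5.90 to 29.1 CPM), and genes on its other strand held 140% of its counts. *Gyg* was the higher gene, at 0.49, and the broad fibroblast marker *Pdgfra* differed by -0.01.

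AT1 markers had a median difference of -0.26 (16 genes, 0 higher and 1 lower in all high-*Col1a1* mice), and AT2 markers one of -0.33 (20 genes, 0 higher and 2 lower). On day 28, 2 AT1 markers were upregulated and 7 downregulated, and 5 AT2 markers were upregulated and 1 downregulated. The shares over all genes tested were 24.1% and 19.2%. The AT2 sums set the 3 mice with the most *Col1a1* apart from the other high-*Col1a1* mice. CTRL mice had AT2 sums of 26870 to 33360 CPM, and replicates 3, 6, 7 and 12 of day 28 lay above them. The AT1 sum was 5607 CPM in replicate 5 and 6938 CPM in replicate 4, with CTRL at 11420 to 14110 CPM. That of replicate 1 (10770 CPM) lay above that of replicate 10 (10510 CPM). It was below those of the other low-*Col1a1* mice (11540 to 13430 CPM) and of replicate 9 (11030 CPM). AT2 markers summed to 16860, 17220 and 21960 CPM in replicates 5, 1 and 4, and to 29440, 38720 and 31990 CPM in replicates 2, 6 and 9, which is inside the range of the low-*Col1a1* mice (29880 to 41750 CPM) but for replicate 2. *Sftpc* followed, at 7218, 6045 and 8588 CPM against 11560 CPM or more in the other 9 mice, with CTRL at 12110 to 15370 CPM. *Ager* was 1119, 1670 and 1164 CPM in these 3 mice and 1595 to 2418 CPM in the others. Replicate 1 overlapped only with replicate 10 (1595 CPM), and the next lowest of the others was replicate 8 at 1813 CPM. On day 28 as a whole neither *Sftpc* (log2FC -0.15 ± 0.18, edgeR adjusted p = 0.522) nor *Ager* (-0.09 ± 0.12, edgeR adjusted p = 0.565) was called.

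*Cav1* (caveolin 1), which AT1 and endothelial cells share, was the AT1 marker without overlap, with 499 to 1101 CPM against 1175 to 1546 CPM. *Bex2* and *Chia1* were those of the AT2 list. *Bex2* was 1.91 to 3.59 CPM in the high-*Col1a1* mice, with little spread among them, and 5.04 to 30.6 CPM in the low-*Col1a1* mice. Transitional epithelial markers, which AT2 cells express on their way to AT1 cells after injury, had a median difference of 0.52 over 17 genes, with 3 higher and 0 lower and 15 upregulated on day 28. The tight junction gene *Cldn4* was 26.02 to 54.6 CPM against 3.91 to 22.9 CPM (CTRL 4.05 to 7.63 CPM), a difference of 1.98. *Sfn* differed by 1.27, *Tnip3* was 8.61 to 13.6 CPM against 2.40 to 6.11 CPM, and the keratin *Krt8* by 0.41 with overlap.

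Club cell markers had a median difference of -0.996 (-1.22 without replicate 10), with 0 higher and 2 lower of 11. Only replicate 10 made the groups overlap in the summed level, as the other low-*Col1a1* mice had 15460 CPM or more. Their sum was 4298 to 14590 CPM in the high-*Col1a1* mice, 14200 to 23430 CPM in the low-*Col1a1* mice and 26250 to 33790 CPM in CTRL, so that no day 28 mouse reached the CTRL range. Its order was not that of *Col1a1*, as replicates 2 and 1 were lowest at 4298 and 5170 CPM while replicate 5, the mouse with the most *Col1a1*, had 14240 CPM. *Cbr2*, a carbonyl reductase, was 315 to 1466 CPM against 1900 to 3191 CPM. *Scgb1a1*, the club cell secretoglobin, was 3234 to 11170 CPM against 9613 to 17570 CPM. All 14 ciliated cell markers had negative differences (median -0.87), 1 of them, *Tppp3*, without overlap (36.4 to 152 CPM against 197 to 277 CPM), and 13 were downregulated on day 28.

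Endothelial markers had a median difference of -0.41, and 0 of 25 tested were higher and 4 lower in all high-*Col1a1* mice, with 3 upregulated and 15 downregulated on day 28. *Ednrb*, an endothelin receptor of alveolar capillary cells, was 11.5 to 60.8 CPM against 76.7 to 124 CPM and 126 to 184 CPM in CTRL. *Tek*, *Tie1* and *Fibin* were the others, at -0.56, -0.41 and -1.04. *Car4*, carbonic anhydrase 4 of the same capillary cells, was 53.8 to 130 CPM against 124 to 175 CPM and overlapped by 1 mouse. Of the 25 markers 5 had positive differences, among them *Prox1*, the lymphatic transcription factor (0.79), *Col15a1*, known from systemic vessels (1.18), and *Vwf* (0.30), all with overlap.

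Of 24 markers of lipid-associated and monocyte-derived macrophages, 6 were higher and 0 lower in all high-*Col1a1* mice, with a median difference of 0.83 (0.90 without replicate 10), and 19 were upregulated on day 28. The sum was 7798 to 12480 CPM against 4814 to 8429 CPM, and replicate 12 alone gave the overlap, at 8429 CPM where the other low-*Col1a1* mice had at most 5176 CPM. *Spp1* (osteopontin), a product of macrophages in fibrotic lung, was 2686, 3975, 913, 3454, 2563 and 1900 CPM in the high-*Col1a1* mice, 1892 CPM in replicate 12 and 191 to 454 CPM in the other low-*Col1a1* mice. *Arg1* (arginase 1) was 4.99 to 36.99 CPM in the high-*Col1a1* mice, 8.26 CPM in replicate 12 and 1.64 to 2.79 CPM in the other low-*Col1a1* mice, and replicates 4 and 6 lay below replicate 12. The complement genes *C1qa*, *C1qb* and *C1qc* did not overlap, with differences of 1.27, 1.38 and 1.30, and *Trem2*, a lipid receptor, did (1.33). In all 12 mice *Spp1* lay above CTRL (26.96 to 122 CPM).

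Alveolar macrophage markers pointed both ways, with a median of 0.27 and 0 higher and 2 lower of 15. The mannose receptor *Mrc1* (0.83) and the integrin *Itgax* (0.78) had positive differences with overlap, *Siglecf* differed by -0.11, and the lower genes were *Krt79* and *Cidec*. *Cidec*, a lipid droplet protein that is also a gene of brown fat, was 0.60 to 4.47 CPM in the high-*Col1a1* mice and 5.25 to 9.98 CPM in 5 low-*Col1a1* mice, and 230 CPM in replicate 10. Its difference of -2.80 therefore became -1.95 without that mouse, and day 28 as a whole was not called (log2FC 0.99 ± 0.61, edgeR adjusted p = 0.191). That fold change included replicate 10. CTRL mice had 7.7 to 14.6 CPM of *Cidec*, and all 6 high-*Col1a1* mice and 4 of the 6 low-*Col1a1* mice lay below them.

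Among neutrophil markers 2 of 11 tested were higher, *Mmp8* (1.33) and *Il1b* (0.74), with a list median of 0.38. T and NK cell markers had a median of 0.15 (0.243 without replicate 10), with 0 higher and 1 lower of 19, the cytotoxic gene *Prf1* at -0.94. *Foxp3*, of regulatory T cells, had the largest difference at 1.48 with overlap, but genes on its other strand held 179% of its counts. In the B and plasma cell list the class-switched immunoglobulin genes *Ighg1* (2.73) and *Igha* (1.57) had positive and the B cell genes *Ms4a1* (-1.36) and *Cd79a* (-1.32) negative differences, with 0 of 20 tested genes free of overlap. The difference of *Ighg1* was 2.43 without replicate 10. Constant region genes of this family share sequence, so their counts are uncertain. The median of that list moved from -0.50 to -0.12 without replicate 10, whose sum of 5828 CPM was next to the highest of the high-*Col1a1* mice, 5856 CPM. Over all genes tested, 3.77% were higher and 2.41% lower without overlap. MHC class II genes (median 0.175, *H2-Ob* lowest at -0.99) and interferon-stimulated genes (0.15) had 0 and 1 without overlap of 11 and 21. The latter was *Cxcl10*, a chemokine for T cells, at 1.67, and *Cxcl9* had the largest difference at 1.93 with overlap.

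Cell cycle genes had a median difference of 0.89 (0.834 without replicate 10), next to the macrophage markers above at 0.83 (0.90), so the order of these lists turned with that mouse. All 30 had positive differences, 13 were higher in all high-*Col1a1* mice, and 29 were upregulated on day 28. *Mki67*, the proliferation marker, was 55.8, 71.1, 58.1, 97.5, 88.8 and 69.98 CPM in the high-*Col1a1* mice and 22.5 to 48.03 CPM in the low-*Col1a1* mice. Here the 3 mice with the most *Col1a1* were not the highest, and replicates 2 and 6 were. The mitotic gene *Ccnb1* differed by 1.51 and *Top2a* by 1.05, while the replication genes *Mcm2*, *Mcm3*, *Mcm4* and *Mcm6* differed by 0.17 to 0.39 with overlap.

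Of 21 p53 targets and senescence genes, 2 were higher in all high-*Col1a1* mice (median 0.33), *Cdkn2a* (2.61 to 6.68 CPM against 0.80 to 1.85 CPM) and *Tnfrsf10b*. *Cdkn1a*, the p21 inhibitor of the cell cycle, differed by 0.66 with overlap, 167 to 226 CPM against 88.3 to 168 CPM, and all 12 mice lay above CTRL (22.6 to 49.2 CPM). The 24 ER stress and chaperone genes differed by a median of 0.21, with 2 higher, *Sdf2l1* (0.56) and *Kdelr3* (0.84), the latter beside a gene on the other strand with far more counts.

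**Figure D4:**
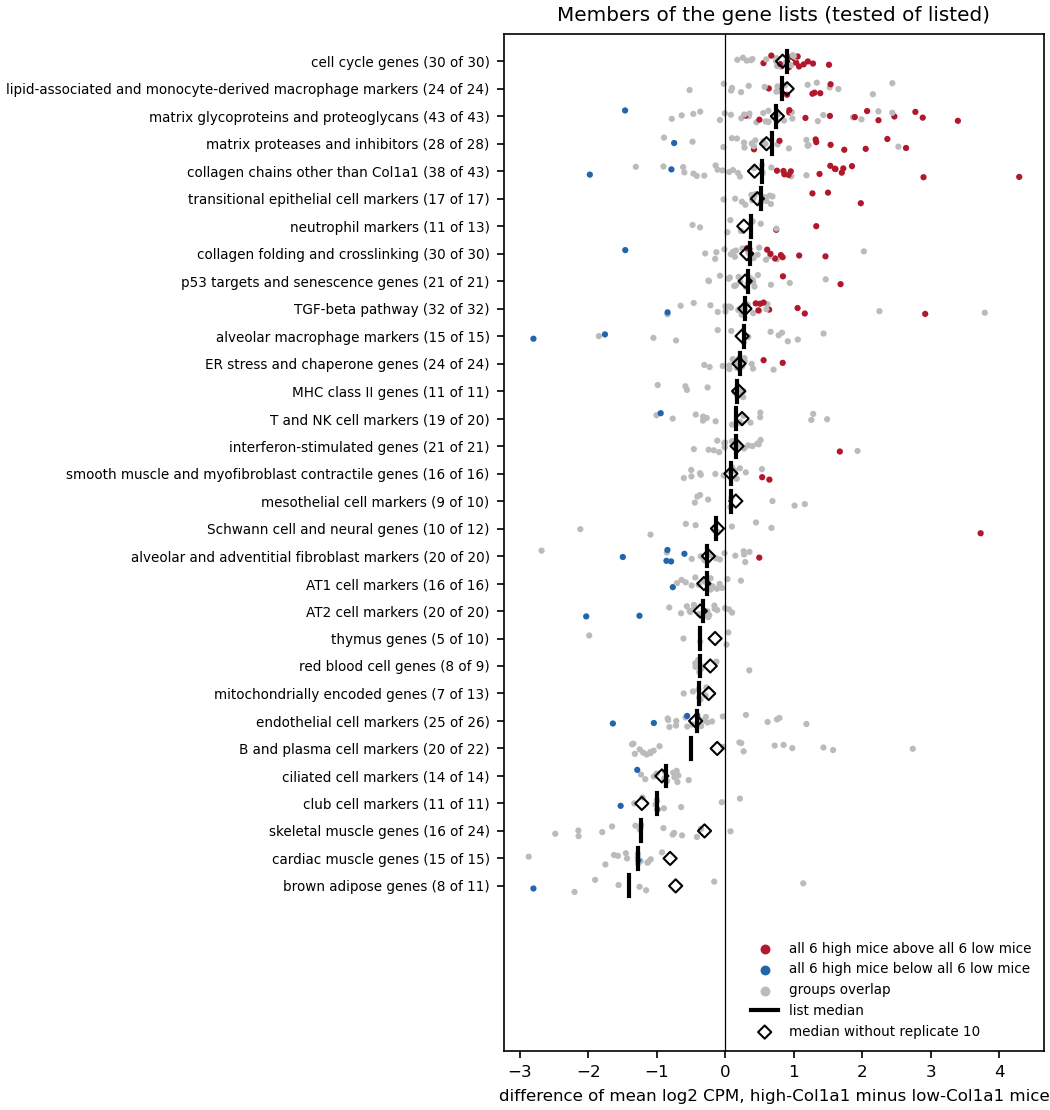
Difference of mean log2 CPM between high- and low-*Col1a1* mice (x axis) for each tested member of 31 gene lists (rows). Red and blue points mark members without overlap between the 6 and 6 mice, bars are list medians and diamonds are medians without replicate 10. Cell cycle genes have a median of 0.89 (0.834 without replicate 10) and lipid-associated and monocyte-derived macrophage markers one of 0.83 (0.90), and the muscle and brown adipose lists move when replicate 10 is left out, for brown adipose genes from -1.41 to -0.73.

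Skeletal muscle genes (16 of 24 tested) had a median difference of -1.23, which became -0.305 without replicate 10, and *Ckm*, muscle creatine kinase, reached 247 CPM in that mouse (difference -2.48, and -1.46 without it). Cardiac genes moved from -1.28 to -0.81 and brown adipose genes from -1.41 to -0.73. The atrial peptide gene *Nppa* was at 716 CPM in replicate 10 and at 0 in more than 1 mouse of each group. Its difference was -2.87, and -1.21 without replicate 10. Cardiac *Myh7* and the fat gene *Cidec* were the only members of these 3 lists without overlap. The medians of mesothelial, thymus, red blood cell and mitochondrially encoded genes were 0.0749, -0.37, -0.37 and -0.38, and 0.152, -0.151, -0.221 and -0.244 without replicate 10, with 0 members free of overlap in each list while that mouse was included. Schwann cell and neural genes had a median of -0.14 and 1 member without overlap, *Chl1*. The largest differences in the first 4 of these lists were those of *Krt5*, *Rag1*, *Hbb-bt* and *mt-Nd2*. They were 1.16, -1.99, -0.44 and -0.61, and 1.35, -2.54, -0.27 and -0.48 without replicate 10. *Rag1* has an overlapping gene on its own strand. *Krt5* was 0 to 10.8 CPM in the high-*Col1a1* mice and 0 to 2.31 CPM in the low-*Col1a1* mice, and CTRL had at most 0.0954 CPM. The place of *Krt5* in the mesothelial list does not show which cells carried it, and its source was not tested.

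The lower genes named by the rule on size had varied functions. *Ces1f*, a carboxylesterase of a family with near-identical copies, was 0.58 to 2.84 CPM against 6.80 to 28.9 CPM. The 28.9 CPM was that of replicate 10, and the next highest was 14.0 CPM in replicate 3. The difference was -2.56, and -2.27 without replicate 10. *Colq*, the collagen-like anchor of acetylcholinesterase, was 1.91 to 11.1 CPM against 13.9 to 38.4 CPM, a difference of -2.46. *Gria1*, a glutamate receptor subunit, was 3.59, 1.10, 4.44, 0.68, 4.47 and 2.36 CPM against 6.54 to 16.4 CPM, and all 12 mice lay below CTRL (28.8 to 45.7 CPM). *Ankrd63* (-2.21), *Cytl1*, a secreted cytokine-like protein (-2.06), and *Ptgfr*, the prostaglandin F receptor (-2.03), complete the genes named by rule with *Bex2* and *Cidec*. Of these 8 genes 7 were downregulated on day 28, with *Ces1f* nearest to the threshold (edgeR adjusted p = 0.0491) and *Cidec* not called. For both genes the comparison included replicate 10, which lay above all CTRL mice. CTRL mice had 7.08 to 16.7 CPM of *Ces1f*, and all 6 high-*Col1a1* mice and 3 of the 6 low-*Col1a1* mice lay below them.

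Whether the same genes go with *Col1a1* in other mice was tested on days 14, 21 and 35, which the grouping did not use. The 16 genes with the largest differences among those without overlap and with a mean log2 CPM above 1, and 22 further genes of fibrosis and lung cells, chosen with results of these data known, were each related to *Col1a1* (log2 CPM) over the 12 mice of a day, which makes 114 relations. By a two-sided permutation test of Spearman's rho, 74 of the 114 had an adjusted p under 0.05, and all 74 had the sign of the day 28 difference. The number was 31 of 38 on day 14, 36 of 38 on day 21 and 7 of 38 on day 35. By Pearson's r the numbers were 31, 36 and 22. The smallest rho among the 74 was 0.636 in size, and of all 16220 genes 23.7% reached that size on day 14, 26.2% on day 21 and 6.79% on day 35. Among the 16 genes chosen by size of difference, 14, 16 and 2 passed on the 3 days, and all 48 relations had the sign of day 28. The share of all genes that kept the sign of their day 28 difference is not given here. The counts of relations with the same sign therefore have no background beside them. On these days the skeletal and cardiac muscle genes summed to at most 143 and 586 CPM in any mouse.

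On day 21, *Col1a2* had a rho of 1.00 and *Fn1* of 0.99, and *Fst* (0.99), *Frzb* and *Col5a1* (0.98 each), *Cemip* and *Tnc* (0.965 each) came next. Among the lower genes, *Cytl1* and *Ptgfr* had a rho of -0.95 each and *Sftpc* one of -0.91 (permutation test adjusted p of 0.000526 or less for these 10 genes). Without the 2 mice farthest from the median, r of these 10 genes was -0.91 to -0.89 or 0.94 to 1.00. Those not called on that day were *Krt8* (rho 0.29, r 0.40) and *Car4* (rho -0.385, r -0.24).

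Some genes were not called on every day. *Mki67* had a rho of -0.23 and r of -0.38 on day 14 (permutation test adjusted p = 0.511 for rho), 0.78 on day 21 and 0.78 on day 35 (permutation test adjusted p = 0.00872 and 0.00857). *Postn* had a rho of -0.007, 0.83 and -0.385 on the 3 days, and *Cthrc1* 0.53, 0.90 and 0.49. Differences between days were not tested. *Sftpc* was again inversely related on day 14 (rho -0.92, r -0.92), and *Arg1*, *Spp1* and *Timp1* were directly related (rho 0.85, 0.85 and 0.84).

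On day 35, 1 mouse had 1993 CPM of *Col1a1* and stood 0.88 above the other 11 on the log2 scale of TMM-scaled CPM. The genes that passed in rho were the collagens *Col1a2*, *Col3a1* and *Col5a1* (rho 0.87, 0.91 and 0.92), *Tnc* (0.78), *Mki67* (0.78), *Ptgfr* (-0.73) and *Ankrd63* (-0.64). For some others Pearson's r rested on the extreme mice. *Fst* had an r of 0.685 and a rho of 0.51, and r was 0.37 without the 2 mice farthest from the median *Col1a1*. *Sftpc* had -0.52, -0.09 and 0.16 in the same order, and *Spp1* 0.30, 0.11 and 0.08. The range of *Col1a1* was narrower on that day in the remaining mice, 460 to 1041 CPM.

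**Figure D5:**
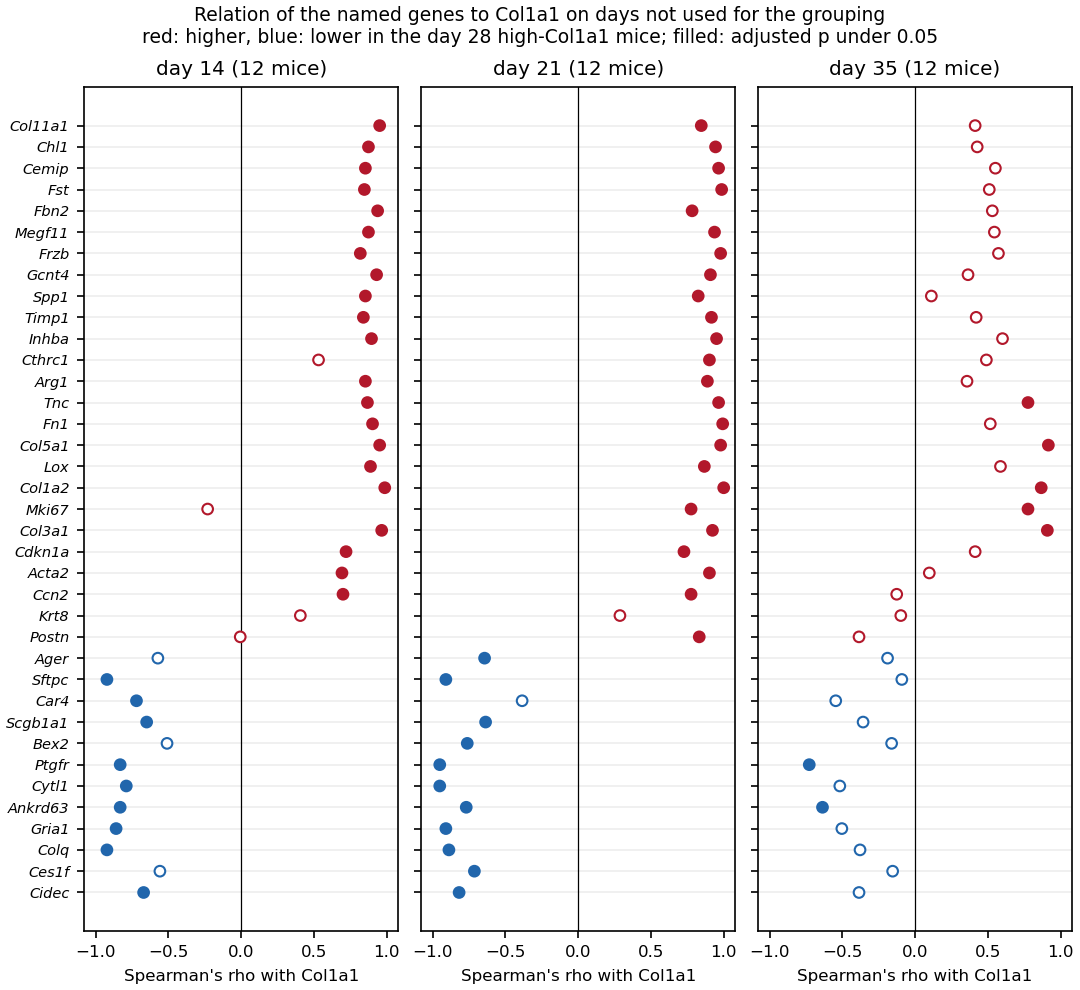
Spearman's rho with *Col1a1* (x axis) for the named genes (rows) over 12 mice each on days 14, 21 and 35. Red and blue mark genes higher and lower in the high-*Col1a1* mice of day 28, and filled points have an adjusted p under 0.05. Most points are filled on days 14 and 21 and 7 are filled on day 35, and no filled point lies on the other side of 0 from its day 28 difference.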

How the data were processed

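RNA sequencing of 1 lung lobe from each of 75 mice was deposited as a table of read counts per gene. Per the labels and the methods of the study, the authors prepared directional single-end libraries and aligned the reads with STAR 2.7.0f to GRCm38 with the genes of Ensembl release 96. The counting program and its strand setting are not given in the sources used here. Groups were taken from the labels.

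Day 28 mice were ranked by *Col1a1* counts as CPM of total counts. Other levels were CPM scaled by TMM factors (edgeR 4.0.16, R 4.3.3), in log2 with a prior count of 2 for differences, over genes kept by the expression filter of edgeR. Differences between high- and low-*Col1a1* mice carry no test, because the readout chose the groups. For day 28 against CTRL, the quasi-likelihood test of edgeR was run in a fit of all 75 mice, with Benjamini-Hochberg adjustment at 0.05. Relations on days 14, 21 and 35 used two-sided permutation tests with 100000 resamples (drawn with numpy 2.4.6), adjusted over all 114.

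Genes were named by rule: the 8 largest differences in each direction without overlap, with and without replicate 10, and a mean log2 CPM above 1 (skeletal muscle genes and clone names left out), 22 fixed genes, and in each of 31 lists the member with the largest difference. Some genes that entered the counts are not reported here. Other list members were named as examples after their values were seen. Members, lists and tests were chosen with earlier results of these data known. Alternatives covered scaling, filters, prior counts, ranking, DESeq2 1.42.0 and mice left out. The procedures were tested on simulated data.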

Additional observations from a re-analysis of the deposited data

Results flagged for a closer look

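Of 210 sets of values, 10 held a mouse far from the others of its group by Dixon's criterion. Chance alone gives this in about 1 of 20 sets. The sets were some of the named genes, not all of them, and list sums in the high-*Col1a1*, low-*Col1a1* and CTRL mice. Among the low-*Col1a1* mice of day 28, replicate 10 stood apart for *Cidec* at 230 CPM, for skeletal muscle genes at 3880 CPM and for brown adipose genes at 1300 CPM. Replicate 12 of the same group stood apart for *Arg1* at 8.26 CPM and for markers of lipid-associated and monocyte-derived macrophages at 8429 CPM. The other 5 were CTRL mice. Replicate 2 had 4.29 CPM of *Arg1* and 1333 CPM of alveolar macrophage markers. Replicate 4 had 0.0926 CPM of *Chl1*, replicate 3 had 7.08 CPM of *Ces1f*, and replicate 1 had 111 CPM of mesothelial markers.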

How the results depend on the processing

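The counts of genes without overlap and of 2-fold differences stayed within 1.5 times of the reported ones under every scaling, prior count and ranking tried, with 593 to 639 genes higher and 387 to 428 lower in all high-*Col1a1* mice under the other scalings. With at least 10 counts required in every day 28 mouse, 248 genes were at least 2-fold higher and 168 at least 2-fold lower, as weakly expressed genes were then left out. Without the 2 mice nearest to the cut, 618 genes were lower in all remaining high-*Col1a1* mice, where fewer mice had to be apart. No named gene changed the direction of its difference under the 4 alternatives tried. Against CTRL, DESeq2 called 3871 genes upregulated and 3190 downregulated, and the fit without replicate 10 of day 28 called 3841 and 3195. With the replicate number as a block, 3274 genes were upregulated and 3057 downregulated, against 3587 and 3073 in the same 20 mice without the block, a comparison chosen after seeing the data. The numbers did not pair the mice, as same-numbered pairs correlated between -0.121 and 0.146 and 1 of 10 CTRL mice correlated best with its own number. Of the 74 relations on other days, 56 passed without the 2 mice farthest from the median *Col1a1*, and 77 passed in CPM of total counts. Genes with few counts, such as *Col11a1* in the low-*Col1a1* mice, have imprecise levels at this depth.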

Other observations

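Further genes without overlap between the high- and low-*Col1a1* mice were picked one by one after their values were seen, and they show nothing of the other genes of their kind. Of genes that encode Wnt ligands or inhibitors, *Wnt10a* was 1.42 to 8.28 CPM against 0.0931 to 0.801 CPM, *Dkk2* 9.67 to 28.7 CPM against 1.73 to 4.94 CPM and *Sfrp1* 93.8 to 304 CPM against 37.5 to 79.0 CPM. *Igf1*, insulin-like growth factor 1, differed by 1.57 on the log2 scale and *Pdgfc*, a platelet-derived growth factor, by 1.72. *Lrrc15*, a surface protein of activated fibroblasts, was 0.774 to 14.0 CPM against 0.279 to 0.673 CPM. The immune ligand *Tnfsf18* differed by 3.77, the chemokine *Ccl7* by 1.72 and the Fc receptor *Fcgr1* by 1.45.

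Lower genes picked in the same way include enzymes. *Cyp4b1*, a cytochrome P450, was 104 to 234 CPM against 331 to 518 CPM, with CTRL at 616 to 892 CPM. *Fmo1*, *Aox3* and *Gsta3* differed by -1.07, -1.13 and -1.17 on the log2 scale. *Hpgd*, which degrades prostaglandins, was 110 to 415 CPM against 450 to 733 CPM, and day 28 as a whole was not called against CTRL (edgeR adjusted p = 0.0866). *Tmem100* was 79.9 to 339 CPM against 407 to 541 CPM and *Bmp6* 45.96 to 130 CPM against 139 to 233 CPM. *Gsn* (gelsolin), an actin-severing protein, was 910 to 1994 CPM against 2271 to 3931 CPM, and CTRL had 4278 to 5161 CPM.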
